A study of Mus musculus with 15 samples.

Results

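The genes described here are 10 matrix and contractile genes that are often read as signs of fibroblast activation: the matrix glycoproteins Tnc, Thbs1, Thbs2, Fn1 and Postn, the small proteoglycans Dcn and Lum, and the cytoskeletal genes Vim, Acta2 and Tagln. They were chosen by name, as the array entries annotated with that 1 gene symbol, taking the entry of highest mean where a gene had several. All 10 were measured, among 22180 genes of the array with 1 symbol. They were followed in whole mouse kidneys, with 1 Affymetrix Mouse Gene 2.0 ST array per animal. Every mouse carried the Rosa26-LSL-PRCC-TFE3 knock-in, a cancer fusion of PRCC and the transcription factor TFE3 kept silent by a stop cassette until Cre recombinase removes it. The 4 groups were 4 KSP-Cre-negative (Cre-) and 4 KSP-Cre-positive (Cre+) mice at 4 months of age, and 3 Cre- and 4 Cre+ mice at 7 months. KSP-Cre is driven by the promoter of Cdh16, a cadherin of tubule epithelium. The transgene is therefore expected in tubule cells and not in interstitial cells, which are among the cells that make these 10 products. No group carried Cre without the knock-in, so the fusion and Cre itself cannot be told apart.

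In a healthy kidney the interstitium is thin and holds resting fibroblasts and pericytes. During injury or tumour growth, fibroblasts can become myofibroblasts, which secrete fibronectin, collagens and matricellular proteins and build contractile fibres of smooth muscle actin, the product of Acta2. Matricellular proteins such as tenascin-C, the thrombospondins and periostin are laid into the matrix but act mainly on cell adhesion and growth factor signals, and thrombospondin-1 can release TGF-beta from its latent form. Macrophages, mesangial cells and injured tubule cells can make several of these products too.

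Values are given on the log2 scale of the deposited RMA table, on which a step of 1 doubles the signal. A gene was called changed where limma's p-value, adjusted over 22180 genes, was under 0.05. The table gives no detection calls. Entry medians per array lay between 4.40 and 4.55, and medians of the 22180 genes between 4.90 and 5.13. Cre- group means of Lum, Postn, Tnc and Thbs2, 4.70 to 5.46, were not far from these medians. Those levels are not shown to be above background, and folds of these genes compare array signals only. Gpnmb, a gene strongly driven by this transcription factor family, was higher in Cre+ by 6.30 at 4 months and 7.74 at 7 months, and its values separated the Cre+ from the Cre- kidneys in all 15 arrays, while Tfe3 itself differed by 0.22 at 7 months (limma's adjusted p = 0.14). The Y-linked genes Kdm5d, Eif2s3y and Uty averaged 6.92 to 7.80 in 8 arrays and 2.64 to 2.98 in 7 arrays. Sex is not in the labels used here. The low arrays were replicates 2 and 4 of 4-month Cre-, 3 and 4 of 4-month Cre+, 1 of 7-month Cre-, and 3 and 4 of 7-month Cre+, and several of the 10 genes followed this split, as described further on.

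At 4 months 3 of the 10 genes were higher in Cre+ and none was lower: Tnc (3.36-fold), Thbs1 (2.01-fold) and Dcn (1.72-fold). Over all genes 2.73% were called higher and 0.803% lower. At 7 months 7 of the 10 were higher and none was lower, with Fn1, Thbs2, Postn and Vim added to the first 3, against 11.7% of all genes called higher and 10.8% lower. The 10 genes had a median difference of 0.40 at 4 months and 1.23 at 7 months, and the medians of all genes were 0.05 and -0.04. Acta2, Tagln and Lum were not called at either age. Acta2, whose product defines a myofibroblast, was thus not among the genes that rose, and the set is called here matrix and contractile genes rather than a myofibroblast signature. In whole-kidney RNA, more cells of a type and more RNA per cell cannot be told apart.

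**Figure D1:**
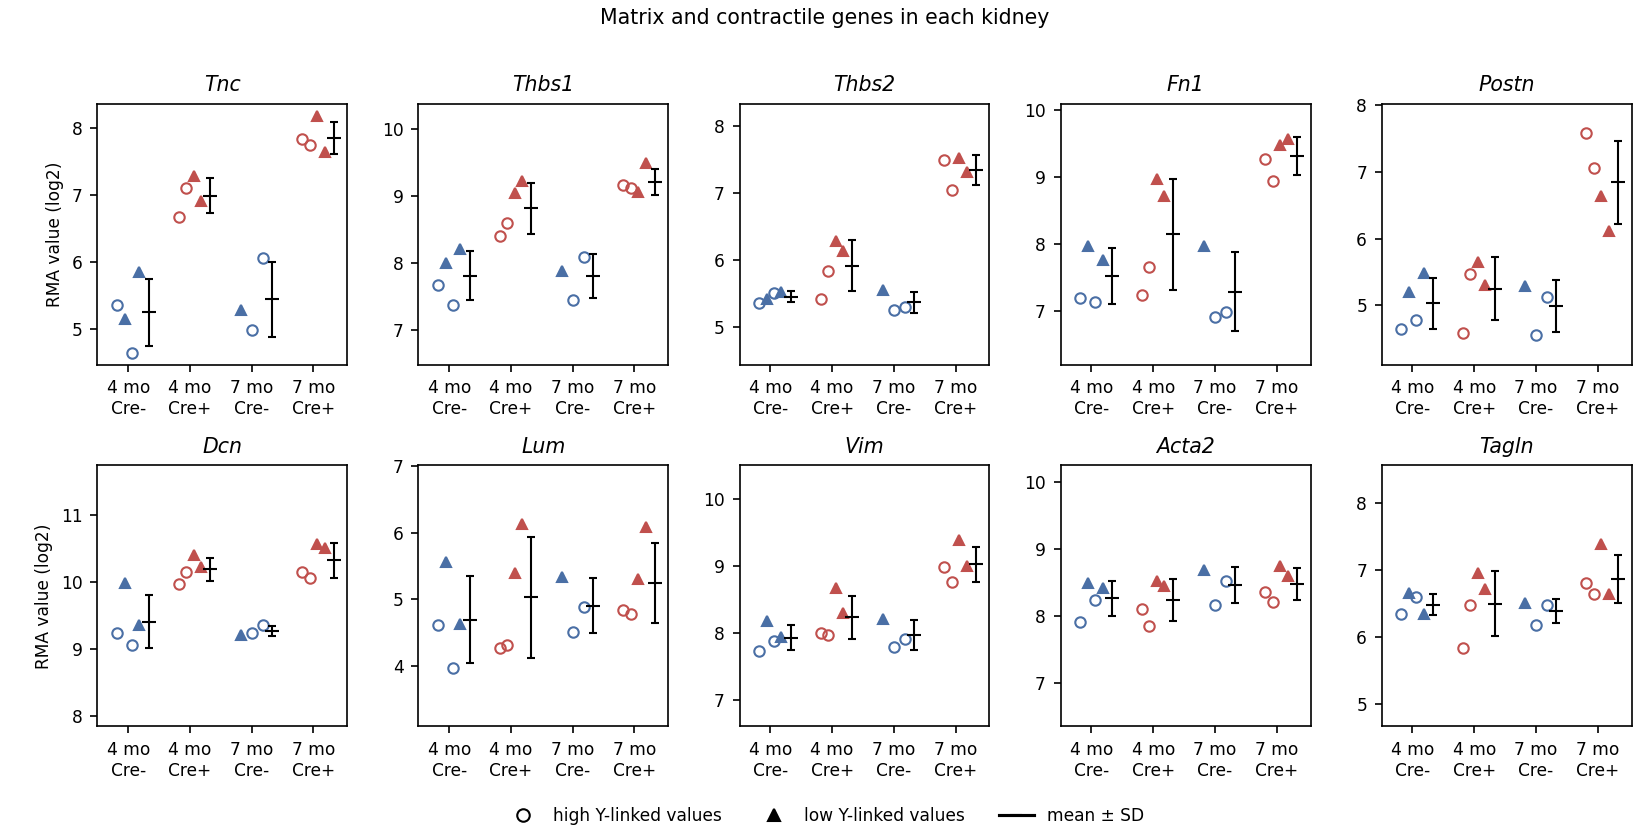
RMA values (log2, y axis) of the 10 genes in each kidney, by age and Cre status (x axis), with the mean and SD of each group beside its points. Open circles are arrays of high and filled triangles arrays of low Y-linked values. All panels span the same number of log2 units. Tnc separated Cre+ from Cre- at both ages (lowest Cre+ value 6.67, highest Cre- value 6.07), Thbs2 reached 7.05 or above in 7-month Cre+ arrays only, and the Acta2 groups overlapped.

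Promoter sequences show how these genes differ in the stretch next to their start. RefSeq windows on GRCm38.p6, from 250 bases before to 50 bases after a listed start, were at hand for 5 of the 10 genes (Vim, Postn, Tnc, Thbs2 and Acta2) as 7 windows out of 32851. The 120 bases from 100 before the start onward are printed 5′ to 3′ for 3 of them: Acta2, the smooth muscle actin gene that was not called, and Tnc and Postn, which had the largest 4-month change and the largest difference between ages among the 10. Capitals mark a CArG box with at most 1 mismatch (the site read by serum response factor, SRF, the regulator of contractile genes) and the heptamer TATATAA, which resembles a TATA box.
Acta2 (chr19:34255354-34255473, minus strand): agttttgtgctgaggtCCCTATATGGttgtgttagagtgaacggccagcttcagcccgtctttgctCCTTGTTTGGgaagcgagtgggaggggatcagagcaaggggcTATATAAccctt
Tnc (chr4:64046917-64047036, minus strand): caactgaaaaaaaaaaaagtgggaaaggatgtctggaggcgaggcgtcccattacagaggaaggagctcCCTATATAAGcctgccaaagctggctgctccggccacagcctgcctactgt
Postn (chr3:54361007-54361126, plus strand): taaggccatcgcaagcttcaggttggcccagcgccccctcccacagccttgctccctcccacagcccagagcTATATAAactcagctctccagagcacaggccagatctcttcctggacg
Acta2 held 2 near-CArG sequences, 84 and 34 bases before its listed start, and TATATAA began 8 bases after that start. In Tnc a near-CArG sequence began 31 bases before the start, and the TATATAA heptamer that it overlaps began 29 bases before it. Postn held TATATAA 28 bases before the start and no near-CArG sequence in this window. Tnc and Postn each had another listed start, not printed, whose window held neither a near-CArG sequence nor TATATAA. The windows of Vim and Thbs2, also not printed, held neither of them. Searched on both strands, TATATAA was present in 3.24% of all windows and a CArG box with at most 1 mismatch in 21.1%. An exact CArG box (1.63% of all windows), CACGTG, the E-box that TFE3 and its relatives read (7.15%), and TGANTCA, the AP-1 site (7.81%), were in none of the 7 windows. These are matches of letters in a short window and no measure of binding.

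Tenascin-C, encoded by Tnc, is a large hexameric glycoprotein that is scarce in adult kidney and appears at sites of repair and in tumour stroma. Tnc was at 5.36, 5.15, 4.65 and 5.85 in the 4-month Cre- kidneys and at 6.67, 7.11, 7.29 and 6.92 in the 4-month Cre+ kidneys. At 7 months it was at 5.28, 4.98 and 6.07 in Cre- and at 7.84, 7.75, 8.19 and 7.65 in Cre+. Every Cre+ kidney of either age lay above every Cre- kidney, and the 7-month Cre+ kidneys all lay above the 4-month ones. The difference was 1.75 ± 0.24 (SE) at 4 months (limma's adjusted p = 0.00028) and 2.41 ± 0.26 at 7 months (adjusted p = 3.9e-06, 5.32-fold). The second difference exceeded the first by 0.66 ± 0.35, which was not called (adjusted p = 0.38), with a 95% interval from -0.08 to 1.41.

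Thrombospondin-1, encoded by Thbs1, is a trimeric glycoprotein that inhibits angiogenesis and activates latent TGF-beta. Thbs1 was at 7.67, 8.01, 7.37 and 8.21 in 4-month Cre- and at 8.41, 8.60, 9.05 and 9.23 in 4-month Cre+ kidneys. At 7 months it was at 7.89, 7.45 and 8.09 in Cre- and at 9.17, 9.12, 9.06 and 9.50 in Cre+. The Cre+ kidneys were above all Cre- kidneys at each age, and the Cre+ kidneys of the 2 ages overlapped. Thbs1 rose by 1.01 ± 0.20 at 4 months (limma's adjusted p = 0.0077) and by 1.40 ± 0.22 at 7 months (adjusted p = 0.00015). The difference between these effects was 0.39, with a 95% interval from -0.24 to 1.02, and was not called (adjusted p = 0.55). Tnc and Thbs1 were the 2 genes of the 10 without overlap at 4 months, and 6.31% of all genes lay higher without overlap there.

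Thrombospondin-2, encoded by Thbs2, shares the antiangiogenic repeats of thrombospondin-1 and affects collagen fibril assembly. Thbs2 was at 5.36, 5.42, 5.51 and 5.52 in 4-month Cre- kidneys, at 5.41, 5.83, 6.28 and 6.13 in 4-month Cre+, at 5.55, 5.25 and 5.30 in 7-month Cre- and at 7.50, 7.05, 7.52 and 7.31 in 7-month Cre+. At 4 months 1 Cre+ kidney (replicate 1) lay within the Cre- range and the other 3 above it, while at 7 months every Cre+ kidney lay above all other arrays. The 4-month difference of 0.46 ± 0.16 was not called (limma's adjusted p = 0.14), although it was without replicate 1 of 4-month Cre+ (adjusted p = 0.012) and with array weights (adjusted p = 0.04). The 7-month difference was 1.98 ± 0.17 (3.94-fold, adjusted p = 4e-07). Of the 10 genes Thbs2 alone had a Cre effect called different between the ages, by 1.52 ± 0.23 (adjusted p = 0.0039), where 0.96% of all genes were called with a larger effect at 7 months.

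Fibronectin, encoded by Fn1, is the glycoprotein on which collagen and other matrix fibrils assemble. Fn1 was at 7.20, 7.98, 7.14 and 7.77 in 4-month Cre- kidneys, at 7.24, 7.66, 8.97 and 8.72 in 4-month Cre+, at 7.97, 6.91 and 6.99 in 7-month Cre- and at 9.28, 8.94, 9.48 and 9.58 in 7-month Cre+. The 4-month Cre+ kidneys fell into a pair within the Cre- range (replicates 1 and 2) and a pair well above it (replicates 3 and 4), and the upper pair had low Y-linked values. Over all arrays the 4-month difference was 0.63 ± 0.33 (limma's adjusted p = 0.38). At 7 months no Cre+ value overlapped Cre-, and Fn1 rose by 2.03 ± 0.36 (4.09-fold, adjusted p = 0.00046). The effect was larger at 7 months by 1.41 ± 0.49, which was not called (adjusted p = 0.16) unless the Y-linked mean entered the fit (adjusted p = 0.011).

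Periostin, encoded by Postn, is a matricellular protein that binds integrins and helps crosslink collagen, and is little expressed in healthy kidney. Postn was at 4.65, 5.20, 4.78 and 5.49 in 4-month Cre- kidneys, at 4.59, 5.47, 5.65 and 5.30 in 4-month Cre+, at 5.29, 4.56 and 5.13 in 7-month Cre- and at 7.57, 7.06, 6.63 and 6.11 in 7-month Cre+. Only the 7-month Cre+ kidneys stood apart, and they had the widest spread of any of the 10 genes in that group (SD 0.62). Postn differed by 0.22 ± 0.29 at 4 months (limma's adjusted p = 0.77) and rose by 1.85 ± 0.31 at 7 months (3.60-fold, adjusted p = 0.00028). The difference between the effects, 1.63 ± 0.42, lay just outside the threshold (adjusted p = 0.056). It was called after a filter on dim genes (0.041), after median centring (0.042), with the Y-linked covariate (0.045) and without replicate 4 of 7-month Cre+ (0.023).

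Decorin and lumican, encoded by Dcn and Lum, are small leucine-rich proteoglycans that bind collagen fibrils and set their spacing, and decorin also binds TGF-beta. Dcn was at 9.23, 9.98, 9.06 and 9.35 in 4-month Cre- kidneys, at 9.97, 10.15, 10.40 and 10.22 in 4-month Cre+, at 9.20, 9.24 and 9.35 in 7-month Cre- and at 10.14, 10.06, 10.57 and 10.51 in 7-month Cre+. Replicate 2 of 4-month Cre-, at 9.98, reached the lower edge of the Cre+ group, and the other Cre- kidneys lay below. Dcn rose by 0.78 ± 0.17 at 4 months (limma's adjusted p = 0.015) and by 1.05 ± 0.18 at 7 months (adjusted p = 0.00043). The 4-month call was lost without replicate 1 (adjusted p = 0.059) or 3 (0.063) of Cre-, without replicate 3 of Cre+ (0.062) and in the plain linear model (0.063). The Dcn effects of the 2 ages differed by 0.27, with a 95% interval from -0.26 to 0.80 (adjusted p = 0.63).

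Lum was called at neither age. It was at 4.62, 5.56, 3.98 and 4.63 in 4-month Cre- kidneys, at 4.27, 4.32, 5.40 and 6.13 in 4-month Cre+, at 5.33, 4.51 and 4.89 in 7-month Cre- and at 4.84, 4.78, 5.30 and 6.08 in 7-month Cre+. All 4 groups overlapped, and the highest arrays of each had low Y-linked values. Lum differed by 0.33 ± 0.40 at 4 months and by 0.34 ± 0.43 at 7 months (limma's adjusted p = 0.75 and 0.64). With this spread the 95% interval at 7 months ran from 0.676-fold to 2.37-fold, so a change of the size seen for Dcn cannot be told from none.

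Vimentin, encoded by Vim, is the intermediate filament of mesenchymal and immune cells and appears in injured tubule cells. Vim was at 7.73, 8.19, 7.88 and 7.94 in 4-month Cre- kidneys, at 8.00, 7.98, 8.67 and 8.31 in 4-month Cre+, at 8.22, 7.79 and 7.91 in 7-month Cre- and at 8.99, 8.76, 9.39 and 9.00 in 7-month Cre+. The 7-month Cre+ kidneys were above all other arrays, and the 4-month groups overlapped. Vim differed by 0.30 ± 0.16 at 4 months (limma's adjusted p = 0.39) and rose by 1.06 ± 0.18 at 7 months (2.08-fold, adjusted p = 0.00029). A second Vim entry of the array, with group means of 5.09, 5.38, 5.23 and 4.91 in the same order, disagreed: it was lower by 0.32 in 7-month Cre+. With the mean of both entries the 7-month difference was 0.37 and was not called (adjusted p = 0.078).

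Acta2 encodes the actin of smooth muscle and myofibroblasts, and Tagln encodes transgelin, an actin-binding protein of the same cells. Acta2 was at 7.91, 8.49, 8.23 and 8.41 in 4-month Cre- kidneys, at 8.11, 7.85, 8.52 and 8.45 in 4-month Cre+, at 8.69, 8.17 and 8.52 in 7-month Cre- and at 8.36, 8.21, 8.75 and 8.60 in 7-month Cre+. The groups overlapped at both ages. The differences were -0.03 ± 0.17 and 0.02 ± 0.19 (limma's adjusted p = 0.96 and 0.97), and their signs turned under several settings. The 95% interval at 7 months ran from 0.771-fold to 1.33-fold, which leaves out rises of whole-kidney signal as large as those of the 7 called genes. Smooth muscle and myofibroblasts can both add to this signal, and a change in myofibroblasts alone was not measured.

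Tagln was at 6.35, 6.66, 6.59 and 6.34 in 4-month Cre- kidneys, at 5.84, 6.48, 6.96 and 6.72 in 4-month Cre+, at 6.51, 6.18 and 6.48 in 7-month Cre- and at 6.81, 6.64, 7.39 and 6.64 in 7-month Cre+. At 7 months every Cre+ kidney lay above every Cre- kidney by a narrow margin, and at 4 months the groups overlapped. The 7-month difference of 0.48 ± 0.22 was not called (limma's adjusted p = 0.14), with a 95% interval from 0.01 to 0.95. With Tagln, 8 of the 10 genes were higher without overlap at 7 months, where 14.0% of all genes were.

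**Figure D2:**
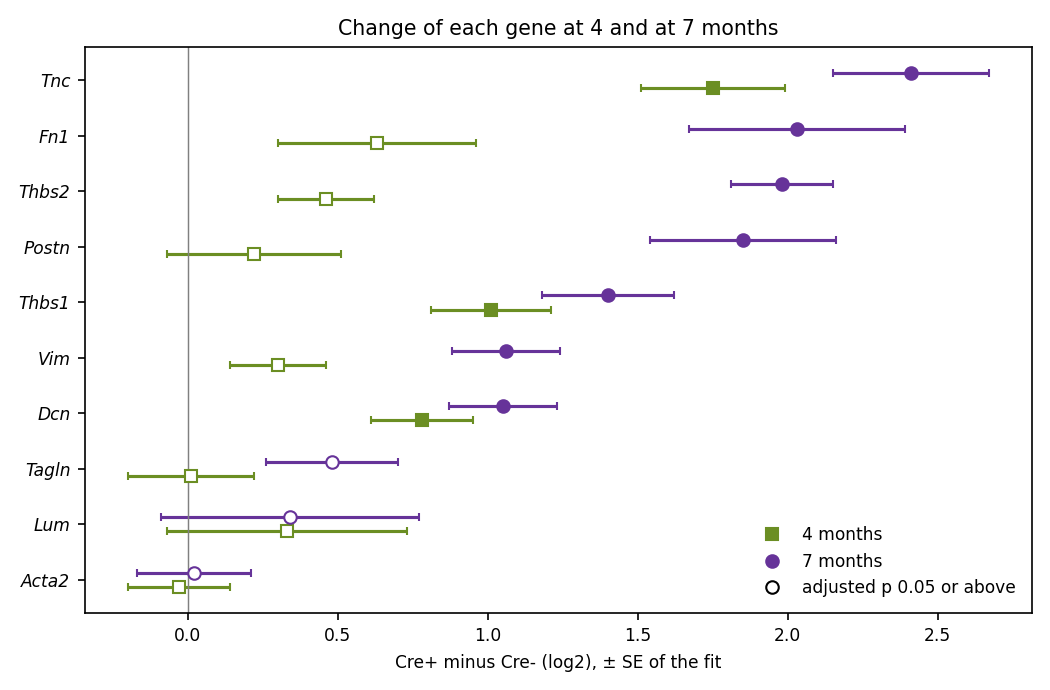
Difference between Cre+ and Cre- kidneys (log2, x axis) for each of the 10 genes (y axis) at 4 months (squares) and 7 months (circles), with bars of 1 SE of the limma fit; open symbols were not called. Tnc has the largest difference at both ages (1.75 and 2.41), Thbs2 and Postn move furthest between the ages, and Acta2 lies near 0 at both.

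The 2 ages were compared within each genotype. In Cre+ kidneys, age and the longer time under Cre and the fusion cannot be told apart. In Cre- kidneys none of the 10 genes was called between 4 and 7 months by limma, their differences lying between -0.23 (Fn1) and 0.21, where 0.00451% of all genes were called higher and 600 of 22180 had an unadjusted p under 0.05. In Cre+ kidneys 5 of the 10 were higher at 7 months, and none lower, against 4.12% of all genes called higher and 6.71% lower: Postn (3.01-fold, limma's adjusted p = 0.0018), Thbs2 (2.70-fold, 4.3e-05), Fn1 (2.26-fold, 0.032), Tnc (1.81-fold, 0.031) and Vim (1.74-fold, 0.005). Postn, Thbs2, Tnc and Vim did so without overlap, as 5.79% of all genes did. This comparison uses the same Cre+ arrays as the Cre comparisons. The Fn1 call was lost without any 1 of replicates 1 and 2 of 4-month Cre+ or 1, 3 and 4 of 7-month Cre+ (adjusted p up to 0.092), with a robust variance trend (0.076), in the plain linear model (0.096), with array weights (0.051) and over all entries (0.071), and the Tnc call without any 1 of replicates 1 and 4 of 4-month Cre+ or 1, 2 and 3 of 7-month Cre+ (up to 0.091), in the plain linear model (0.087) and over all entries (0.068). Vim was not called with the mean of its entries (adjusted p = 0.46). Thbs1 and Dcn, already higher at 4 months, differed by 0.39 ± 0.20 and 0.13 ± 0.17 between the ages in Cre+ (adjusted p = 0.24 and 0.66).

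Within groups, the order of the kidneys followed the Y-linked split for some of the 10 genes. A limma fit of 4 group means plus 1 term for low against high Y-linked values took that difference as equal in all groups. The split was chosen after seeing the data. In this fit 4 of the 10 genes differed between the 2 kinds of array, against 3.4% of all genes. Low arrays were higher for Lum by 0.97 ± 0.17 (limma's adjusted p = 0.00348), for Fn1 by 0.87 ± 0.12 (0.000446), for Acta2 by 0.41 ± 0.08 (0.00614) and for Vim by 0.36 ± 0.09 (0.0248). The remaining 6 genes were also higher in low arrays, by 0.12 (Postn) to 0.39 (Thbs1), and were not called. In 4-month Cre+, replicate 3 was the highest kidney for 8 of the 10 genes and replicate 1 the lowest for 8, and in 7-month Cre- replicate 1 was the highest for 7 and replicate 2 the lowest for 9.

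The Cre differences were also taken within each kind of array, in a limma fit with separate means for each group and kind. At 4 months, and within high arrays at 7 months, each side was only a pair of arrays. The spread was pooled over all groups. At 4 months Tnc, Thbs1 and Dcn were called within high arrays (3 of 10, against 1.68% of all genes), and Tnc, Thbs1, Fn1 and Thbs2 within low arrays (4 of 10, against 1.93%). Fn1 differed by 0.28 (limma's adjusted p = 0.447) within high and by 0.97 (0.0061) within low arrays, but the difference between these effects, 0.69 ± 0.24, was not called (adjusted p = 0.313). At 7 months the same 7 genes were called within high arrays as over all arrays (7.85% of all genes). Low arrays held a single 7-month Cre- kidney, so the spread on that side was not measured there. With that kidney assumed to vary like the other groups, 6 of the 10 were called (8.14% of all genes). Postn differed by 2.47 within high arrays and by 1.08 from that 1 kidney within low arrays, and the difference of -1.39 ± 0.45 was not called (adjusted p = 0.409).

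**Figure D3:**
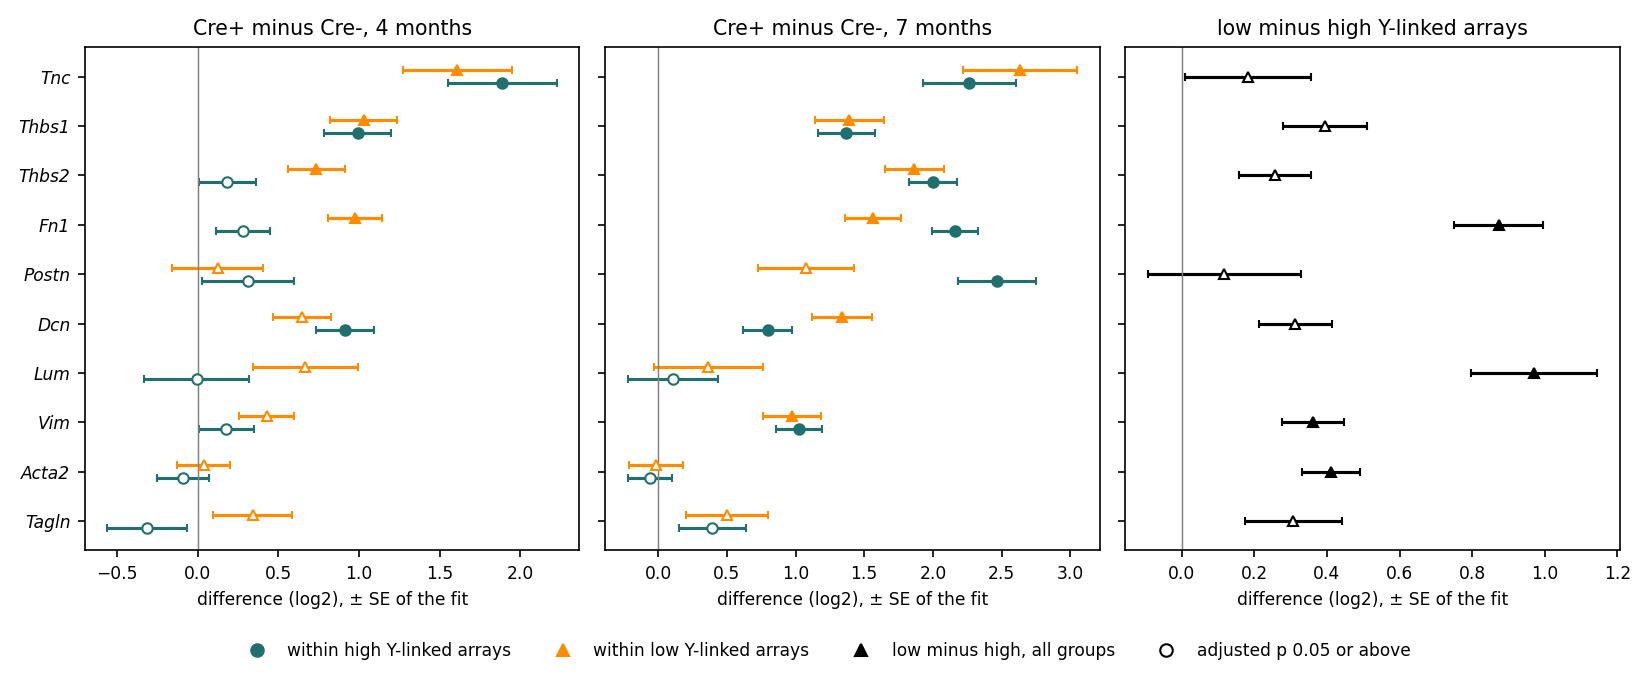
Cre+ minus Cre- (log2, x axis) at 4 months (left) and 7 months (middle) within arrays of high (circles) and low (triangles) Y-linked values, and low minus high arrays over all groups (right), for the 10 genes (y axis), with bars of 1 SE of the limma fit; open symbols were not called. Fn1 and Lum differ most between the 2 kinds of array (0.87 and 0.97), and Postn at 7 months is 2.47 within high and 1.08 within low arrays.

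Other genes of the same matrix were set beside the 10 by lists of related genes. For these and the following lists, the shares over all genes were 11.7% called higher and 10.8% lower at 7 months. At 4 months they were 2.73% and 0.803%. Of 43 other matrix glycoproteins measured out of 47 listed, 19 were higher and 4 lower in Cre+ at 7 months (median 0.36), and 4 were higher and 2 lower at 4 months (median 0.17). Ltbp2, a fibrillin-binding member of the latent TGF-beta binding protein family, rose by 1.83 ± 0.17 at 7 months (limma's adjusted p = 1e-06), the microfibril gene Mfap5 by 1.15 and the collagen-binding matricellular gene Sparc by 1.09. Ecm1 fell by 1.50, Tnn, a tenascin like Tnc, fell by 1.14, and the elastic fibre gene Fbln5 fell by 0.78. The other tenascins on the list, Tnr and Tnxb, and the other thrombospondins, Thbs3, Thbs4 and Comp, were called at neither age. Among the 4-month calls, Sparc was lost under 11 other settings and Tnn under 10 (adjusted p up to 0.14 and 0.13). Of the 6 fibrillar collagens, 3 were higher at 4 months and 4 at 7 months, none lower, with medians of 0.48 and 1.04. Of the 4-month calls, Col1a2 was lost under 8 other settings (adjusted p up to 0.092) and Col3a1 under 6 (up to 0.084). Col1a1 rose by 2.43, Col3a1 by 2.09 and Col1a2 by 1.57 at 7 months.

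Dcn was called at both ages and Lum at neither. Of 13 other proteoglycans measured, none was called at 4 months (median 0.01), where 2.73% of all genes were called higher and 0.803% lower. At 7 months 2 were higher and 1 lower (median -0.17), near the 11.7% and 10.8% of all genes. Biglycan (Bgn), the closest relative of decorin, rose by 0.96 (limma's adjusted p = 0.00075, and 0.055 with the mean of its entries). Fmod rose by 0.68 (0.041, and up to 0.42 under other settings), and Podn fell by 0.68 (0.0031).

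Acta2 and Tagln were not called, and other contractile genes were called in part. At 7 months 11.7% of all genes were called higher and 10.8% lower. Of 25 measured genes of the contractile and SRF pathway list, 13 were higher and 1 lower at 7 months (median 0.51). At 4 months 1 was higher (median 0.12), Tpm4, which was lost under 10 other settings (adjusted p up to 0.10). Flna, which crosslinks actin filaments in most cell types, rose by 1.18 at 7 months, and the tropomyosins Tpm4 and Tpm1 rose by 0.96 and 0.88. Myl9, the light chain of smooth muscle myosin, fell by 0.71. The 5 genes of that list that also mark vascular smooth muscle (Myh11, Actg2, Cnn1, Lmod1 and Des) were called at neither age, with medians of -0.18 and -0.23, and Cnn1 differed by -0.50 at 7 months (limma's adjusted p = 0.11).

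Receptors for these glycoproteins and the TGF-beta pathway were also measured. Their counts stand beside 11.7% of all genes called higher and 10.8% lower at 7 months. Of 16 receptors 7 were higher and 3 lower at 7 months (median 0.37), and 1 was higher at 4 months (median 0.06), Itgb3, which was lost under 6 other settings (adjusted p up to 0.083). At 7 months Itga4, a fibronectin receptor subunit of leukocytes, rose by 1.39, Itgb3 by 1.06 and Sdc1 by 0.59, the last lost with the mean of its entries (limma's adjusted p = 0.11). Cd36, a thrombospondin receptor and fatty acid transporter, fell by 1.59 (adjusted p = 0.0094, and 0.057 without replicate 2 of 7-month Cre-). Itga8, a mesangial integrin subunit that binds nephronectin and tenascin-C, fell by 0.76, and Itgb8 fell by 0.36, which was not called under several settings. In the TGF-beta list, 1 of 10 measured genes was higher at 4 months and 5 at 7 months, none lower, with medians of 0.01 and 0.37. Tgfb2 was the 4-month gene and had the largest difference at 7 months, with means of 4.43 ± 0.56 (SD, n = 3) in Cre- and 9.03 ± 0.24 (n = 4) in Cre+ (limma's adjusted p = 8e-10). Its Cre- level, below those of Tnc, Thbs2 and Postn, is not shown to be above background in a table without detection calls, so no fold is given. It stood beside Tgfb1 (rise of 0.83) and Tgfbr2 (0.60).

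Markers of the cells that could hold these transcripts were called to different extents. Over all genes, 11.7% were called higher and 10.8% lower at 7 months, and 2.73% and 0.803% at 4 months. Of 11 fibroblast and pericyte markers, 3 were higher at 7 months (median 0.33) and 1 at 4 months, Mcam, which was lost under 10 other settings (limma's adjusted p up to 0.13), and their mean level per array was 5.91 to 6.01 in 7-month Cre- and 6.24 to 6.53 in 7-month Cre+. Thy1 was higher by 1.12, Mcam by 0.67 and Notch3 by 0.54, and the other 8 were not called. Among these 8 were Pdgfra (0.54, limma's adjusted p = 0.05), Pdgfrb (0.28, 0.23), Fap (0.27, 0.37) and Gli1 (0.15, 0.40). Tcf21, also not called, went the other way (-0.43, 0.14). Which cells held the Thy1 transcripts was not tested. Macrophage markers were higher for 3 of 11 at 4 months (Adgre1 lost under 8 other settings) and 10 of 11 at 7 months (median 1.30), with means of 6.09 to 6.51 in 7-month Cre- and 7.41 to 7.81 in 7-month Cre+. Of 5 T cell markers, 1 was higher at 4 months (Cd3g, lost under 7 other settings) and 4 at 7 months (median 1.24). Vascular smooth muscle markers averaged 5.19 to 5.34 in 7-month Cre- and 4.79 to 5.16 in Cre+. The proximal tubule list, the tissue check for kidney, averaged 9.84 or above in every array, with 6 of 6 genes lower at 7 months (median -1.26). Among the rest, 3 of 8 endothelial, 3 of 4 podocyte and 2 of 6 distal nephron markers were lower at 7 months, none of these higher. The part of these shifts in the values of the 10 genes was not tested.

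**Figure D4:**
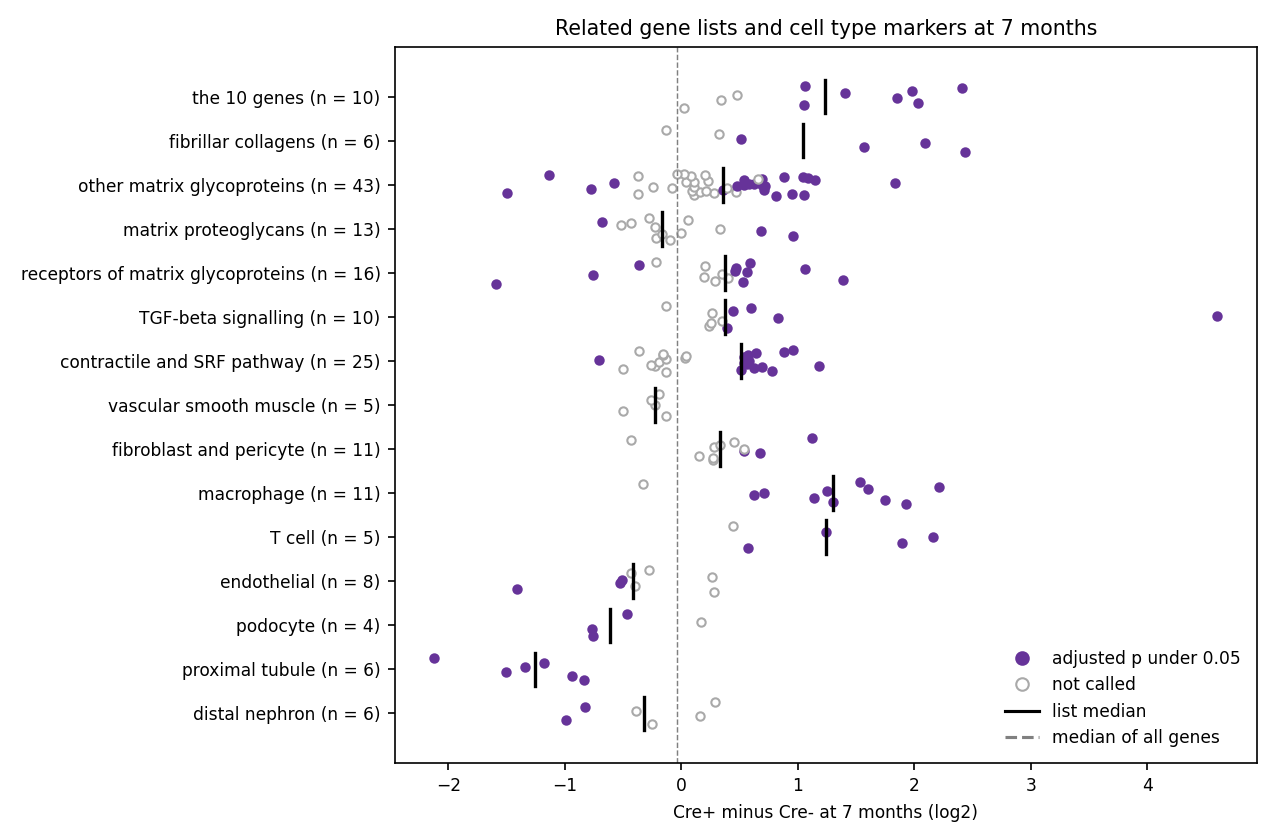
Cre+ minus Cre- at 7 months (log2, x axis) for each gene of the 10, of the related lists and of the cell type marker lists (y axis, with the number of genes measured); filled points were called by limma, vertical ticks are list medians and the dashed line is the median of all genes (-0.04). The 10 genes have a median of 1.23, fibrillar collagens 1.04 and macrophage markers 1.30, while vascular smooth muscle markers lie at -0.23 and proximal tubule markers at -1.26.

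The genes whose profile over 15 arrays lay nearest to each of the 7 genes with group means spanning at least 1 were found by the root mean square difference of centred log2 values. Mmp14, a membrane collagenase, was nearest to Fn1 (0.27) and among the 3 nearest to Thbs2 (0.21), and Lbp, an acute-phase protein, was nearest to Thbs2 (0.16) and the next nearest to Fn1 (0.33). Postn lay nearest to Trpm3 (0.22), Gpc3 (0.28) and Ltbp2 (0.34). Tnc lay nearest to Slc25a24 (0.30), Agt (0.31) and Hexa (0.31), which were higher by 1.20 to 1.85 at 4 months already. Thbs1 lay nearest to Mboat1 (0.14), Epb41l4a (0.14) and Twsg1 (0.15), Vim to Lgals3bp (0.14), Cyth4 (0.14) and Dap (0.15), and Dcn to Dkk3 (0.16), Kctd12 (0.17) and Acacb (0.17).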

How the data were processed

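Total RNA from flash-frozen mouse kidneys was measured on Mouse Gene 2.0 ST arrays (Affymetrix), with an array for each mouse. Per the series design text and the submitters' processing notes, the authors normalized the values by RMA in Partek 6.6. The range of the deposited table, 1.04 to 13.12, shows a log2 scale. No genome build of the array annotation is given in the sources used here. Of 41345 entries, 23521 had 1 gene symbol, 1814 several and 16010 none, and 23328 were matched to RefSeq by Entrez identifier. Of each gene the entry of highest mean was used, which left 22180 genes without a filter. The arrays have no read depth, and their number limits the precision.

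Groups came from the titles. With limma 3.58.1 in R 4.3.3 (lmFit, eBayes), 4 group means were fitted on the full set of 15 arrays. Two-sided p-values were adjusted by the Benjamini-Hochberg method across the 22180 genes, and genes under 0.05 were called. Errors of differences are standard errors of that fit, and intervals are 95% intervals from it. Replicates are separate mice, as the design text counts them. All 10 genes are named whatever their values. Of each related list at most 3 rising and 3 falling genes with the largest 7-month change are named, with others named as values. The 10 genes and the lists were chosen with earlier results of these data known, so their counts are descriptions. Some genes of the lists were not analysed here. On simulated data of 22180 genes the fit recovered 38.8%, 94% and 100% of changes of 0.5, 1 and 2 for the 4-month comparison (5 false calls). For the 7-month comparison it recovered 25.4%, 88.1% and 100% (6 false calls). Fewer genes were changed in the simulation than were called in the data at either age, so these shares do not give the power in the data. Alternatives were quantile normalization, a filter on dim genes, median centring, a plain linear model, a robust variance trend, array weights, fits of the compared groups only, a Y-linked covariate, a replicate block, all entries, averaged entries per gene, and each array left out. Fits within arrays of high or low Y-linked values were added after seeing the data. Python 3.11.15 with pandas 2.3.3, numpy 2.4.6 and matplotlib 3.10.9 served for tables and plots.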

Additional observations from a re-analysis of the deposited data

Results flagged for a closer look

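Thbs2 stood out because its response to Cre differed between the ages by limma's test of the difference itself: the effect at 7 months exceeded that at 4 months by 1.52 ± 0.23 on the log2 scale (adjusted p = 0.0039). The 4-month effect was 0.46 and the 7-month effect 1.98, and without each array in turn the difference lay between 1.35 and 1.64. No kidney was an outlier within its group for any of the 10 genes by Dixon's test, which was run on the groups of 4 and not on the 7-month Cre- group of 3.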

How the results depend on the processing

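The count of 7 genes of the 10 higher at 7 months was the same without each array in turn, and the mean of a gene's entries removed Vim. At 4 months the count of 3 ranged from 2 to 4. The count of genes with a different Cre effect at 7 months, 1 as deposited, was 2 with the filter on dim genes, 2 with median centring, 4 with the Y-linked covariate (Thbs2, Fn1, Postn and Vim) and 1 to 2 without single arrays. The count changed with age in Cre+, 5 as deposited, was 3 in the plain linear model, 3 over all entries and 3 to 5 without single arrays. Over all genes, 178 were lower at 4 months, and 287 with quantile normalization, 511 with median centring, 324 with the Y-linked covariate, 109 over all entries and 72 to 197 without single arrays, with 86 and 84 without replicates 1 and 3 of 4-month Cre- and 72 and 96 without replicates 2 and 3 of 4-month Cre+. Genes higher at 4 months, 606, ranged from 370 to 904 without single arrays, with 384 and 385 without replicates 1 and 3 of 4-month Cre- and 373 and 370 without replicates 3 and 4 of 4-month Cre+. Genes lower at 7 months numbered 2394 and 3609 with median centring. The share of calls that were higher was 77.3% at 4 months (49.3% centred) and 52.0% at 7 months (39.3% centred). For age in Cre+ it was 38.1% (54.5% with quantile normalization), and for the difference between ages 44.8% (56.5%). Centring moved the median of all genes by -0.09 at 4 months and -0.07 at 7 months.

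Among the genes not called, signs turned. Acta2 at 4 months was 0.04 with array weights, 0.04 within low Y-linked arrays and -0.14 to 0.10 without single arrays. Acta2 at 7 months was -0.06 centred, -0.05 with the Y-linked covariate, -0.06 and -0.02 within high and low Y-linked arrays and -0.13 to 0.13 without single arrays. Its difference between ages was -0.01 with the Y-linked covariate and -0.10 to 0.16 without single arrays. Tagln at 4 months was -0.03 with quantile normalization, -0.07 centred, -0.31 within high Y-linked arrays and -0.14 to 0.23 without single arrays. Lum at 4 months was -0.01 within high Y-linked arrays and -0.04 to 0.62 without single arrays. Its difference between ages was -0.12 with the Y-linked covariate and -0.28 to 0.38 without single arrays, and its age difference in Cre+ was -0.06 to 0.59. Apart from the settings' own construction, the cause was not tested.

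Pairing of the kidneys by replicate number was checked. Of 21 same-numbered pairs 11 correlated above 0.1 (range -0.469 to 0.298), and 5 of 15 arrays correlated best with their own number. The highest correlation, 0.55, joined differently numbered kidneys, 4-month Cre- replicate 2 and 7-month Cre- replicate 1, both of low Y-linked values. The main fit did not pair the kidneys. With the replicate number as a block, 614 genes were higher and 181 lower at 4 months and 2398 and 2329 at 7 months, and Acta2 was -0.04 at 7 months, its difference between ages -0.01 and that of Lum -0.20.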
